A study of Mus musculus with 40 samples.

Results

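The numbered Zfp genes are the mouse genes whose symbol is Zfp followed by a number, most of which encode proteins with C2H2 zinc fingers. Of the 24062 genes in the count table, 332 carried such a symbol once Zfp36, the gene of a CCCH-type RNA-binding protein, was set aside. Members were chosen by their own counts: the 298 genes whose mean was at least 1 CPM (counts per gene relative to the total of the library) over 9 libraries were kept, and the other 34 fell below. Their mean levels are therefore a description of the choice and not a result. Just inside the limit stood Zfp300 at 1.02, Zfp934 at 1.05 and Zfp97 at 1.12 CPM, and just outside it Zfp418 at 0.957, Zfp72 at 0.953 and Zfp808 at 0.799 CPM.

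Reads were counted in mouse embryonic fibroblasts (MEFs), which are primary cells taken from embryos 13.5 days after conception and used at the third passage. The embryos were WT, heterozygous (Het) or knockout (KO) for Sall2, the gene of another zinc finger factor, and all came from the mixed C57BL/6J-129P2OlaHsd background, so that genotypes can also differ in the 129P2 segment around the targeted locus on chromosome 14. Control MEFs received no drug, and treated MEFs received 1 µM doxorubicin, an anthracycline that intercalates into DNA and traps topoisomerase II, for 16 h. There were 5 control libraries (WT, Het and KO embryos 1, 2 and 3) and 4 distinct doxorubicin libraries (WT, Het and KO embryos 1 and 2), because the doxorubicin libraries labelled KO 2 and KO 3 held the same count at each of the 24062 genes and were counted once.

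Zinc finger genes of this kind form a large mammalian family of DNA-binding proteins. In a C2H2 finger a pair of cysteines and a pair of histidines hold a zinc ion, and a row of fingers reads a row of short base words. Many members also carry a KRAB box, which recruits the co-repressor Trim28 and, through it, the H3K9 methyltransferase Setdb1 and HP1 proteins, and these KRAB zinc finger proteins are known for the silencing of retroelements and the upkeep of genomic imprints. The genes lie in clusters of tandem copies, and paralogs can be similar enough that reads cannot be assigned to 1 of them. Here 6 members had a protein at least 90% identical to another, Zfp934 and Zfp97 among them, and 10 shared at least 10% of their exonic bases with another gene. Their counts are uncertain.

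The sequence that defines the family is shown for the 3 members with a large fall (Zfp583, Zfp763 and Zfp60) and the 3 with the largest rises (Zfp711, Zfp296 and Zfp707). Each line gives the coding strand of the middle finger of the protein, read from the GENCODE transcript on GRCm38, with the codons of the zinc-binding cysteines and histidines in capitals.
Zfp583 (chr7:6316809-6316871, minus strand): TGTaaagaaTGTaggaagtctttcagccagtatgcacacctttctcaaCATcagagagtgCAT
Zfp763 (chr17:33018931-33018993, minus strand): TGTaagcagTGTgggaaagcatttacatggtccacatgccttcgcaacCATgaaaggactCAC
Zfp60 (chr7:27749187-27749249, plus strand): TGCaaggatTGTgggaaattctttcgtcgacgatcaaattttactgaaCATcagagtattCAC
Zfp711 (chrX:112633044-112633109, plus strand): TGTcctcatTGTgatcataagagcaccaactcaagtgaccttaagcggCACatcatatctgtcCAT
Zfp296 (chr7:19580305-19580367, plus strand): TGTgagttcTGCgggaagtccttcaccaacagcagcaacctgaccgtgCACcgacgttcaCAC
Zfp707 (chr15:75974943-75975005, plus strand): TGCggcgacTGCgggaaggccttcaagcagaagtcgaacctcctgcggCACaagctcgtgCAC
A search of the translated coding sequences for C2H2 fingers and for a KRAB box placed 111 members in a class with both and 178 in a class with fingers and no KRAB match. A further 7 members, Zfp185, Zfp365, Zfp330, Zfp503 and Zfp703 among them, held no finger that met the pattern, and 2 had no coding sequence. KRAB members had a median of 12 fingers and the other C2H2 members a median of 9, and the longest row was 36. With a wider KRAB pattern the first class grew to 159 genes.

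Library totals lay between 15560728 and 24122414 counts. The control libraries of Het and KO 3 and the doxorubicin library of Het stood apart from the rest. The summed level of 8 interferon genes was 2036 CPM in the Het control, 2246 CPM in the KO 3 control and 1576 CPM in Het with doxorubicin, against 14.6 to 25.4 CPM in the other controls and 157.7 to 198.7 CPM in the other doxorubicin libraries. The 9 fibroblast markers were expressed in each library, at a summed 12775 to 17327 CPM in those 3 and 32954 to 44111 CPM in the other 6, and the 7 macrophage markers reached 531 to 916 CPM in those 3 and 74.0 to 159 CPM elsewhere. The 4 epithelial markers summed to 7.22 to 15.7 CPM, with Epcam and Cdh1 at 0 in at least 1 library. The 3 endothelial markers (Pecam1, Cdh5 and Kdr) moved with the treatment, at a summed 4.6 to 6.16 CPM in the controls and 13.5 to 26.5 CPM with doxorubicin, and their part in the results was not tested. Reads of Sall2 were present in each genotype, at 37.7, 24, 19.9, 24.3 and 19 CPM in the WT, Het and KO 1 to 3 controls. With doxorubicin Sall2 was at 9.35, 7.95, 4.23 and 3.72 CPM in WT, Het, KO 1 and KO 2 (log2 fold change ± SE -2.12 ± 0.20, adjusted p = 6.90e-05 by edgeR's quasi-likelihood test). A count over the whole gene cannot show whether the targeted exons were lost. Of the p53 targets, Cdkn1a stood at 555, 533, 449, 493 and 392 CPM in control and 271, 304, 312 and 337 CPM with doxorubicin (log2 fold change ± SE -0.67 ± 0.19, adjusted p = 0.0145 by edgeR's quasi-likelihood test), which misses the threshold of 0.01. With the embryo as a block it passed (-0.73, adjusted p = 5.80e-04), and each treated library lay below each control. Mdm2 (-0.25) and Ccng1 (-0.19) had been chosen with Cdkn1a as a check of the treatment and were not called. None of these p53 targets was therefore called higher with doxorubicin.

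The main question was how the numbered Zfp genes responded to doxorubicin. More members were called lower than higher, and 240 of 298 had an estimate below 0. Of the 298 members, all of which passed the filter on low counts, 143 were lower and 19 higher with doxorubicin at a false discovery rate under 0.01 (edgeR's quasi-likelihood test with genotype as a term, Benjamini-Hochberg adjustment over 16656 genes), and 136 were not called. Over all 16656 genes 18.7% were called lower and 21.9% higher, and over the 13967 genes that met the same mean of 1 CPM the shares were 22.0% and 19.6%. The median log2 fold change of the members was -1.11, with quartiles at -1.76 and -0.28, whereas the median over all genes tested was 0.02. Over the 13967 genes at a mean of 1 CPM or more the median was -0.11. Called or not, 202 members were lower and 44 higher in each of the 4 embryos with both treatments. Of the 16656 genes tested 5850 were lower and 6482 higher in each, and of the 13967 at that mean 5591 and 4895. Of the decreases 132 were at least 2-fold and 54 at least 4-fold, and of the increases 13 and 7. Without KO embryo 1 the members called lower numbered 92, and without KO embryo 2 they numbered 74. Those called higher numbered 31 without KO embryo 3 and 11 without KO embryo 2. Without the Het and KO 3 embryos together, 169 members were lower and 36 higher, with a median of -0.92. Without the members of uncertain counts 138 of 283 were lower and 18 higher.

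**Figure D1:**
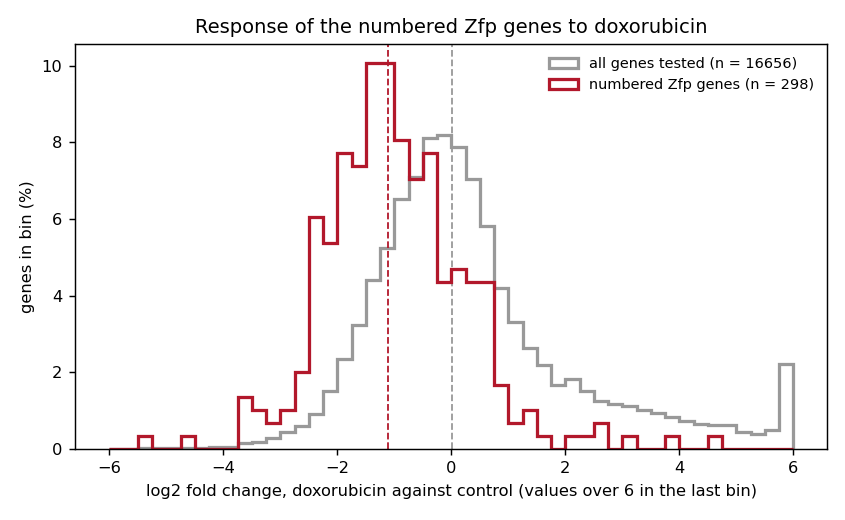
Share of genes (y axis, %) in bins of the log2 fold change between doxorubicin and control (x axis, log2), for all 16656 genes tested (grey) and the 298 numbered Zfp genes (red); dashed lines are medians. The Zfp genes peak near the median of -1.11, while all genes centre on 0.02.

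The shift was seen in each embryo. Within the WT embryo the median difference of the members (log2, doxorubicin minus control) was -0.97, against 0.12 over all genes, and within Het it was -1.09, against -0.03. Within KO embryos 1 and 2 it was -0.80 and -0.79, against 0.13 and 0.09. Between 73.5% of the members in KO embryo 1 and 79.9% in Het were lower with the drug, and over all genes between 45.7% and 50.8%. Counted without a test on TMM-scaled CPM (scaled with trimmed means of M values), all 4 doxorubicin libraries lay below all 5 control libraries for 165 members and above them for 27. Over all genes tested 21.6% lay below and 24.8% above. Of the 13967 genes at a mean of 1 CPM or more, 3512 lay below and 3001 above. On library totals the members numbered 120 and 25, and over all genes the shares were 17.5% and 25.4%. Since these are bulk cultures, fewer cells of a kind and less RNA per cell cannot be told apart, and CPM are relative to the RNA of the library as a whole.

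The summed TMM-scaled level of the members was 5379, 5898, 4753, 5314 and 6285 CPM in the WT, Het and KO 1 to 3 controls. With doxorubicin it was 3520, 3858, 3373 and 3713 CPM in WT, Het, KO 1 and KO 2, so on this scale no treated library reached a control library. On library totals without that scaling the sum was 4477, 7375, 3902, 4384 and 7681 CPM in control and 3314, 5118, 3104 and 3743 CPM with doxorubicin, so that Het with the drug lay above the WT, KO 1 and KO 2 controls, while each treated library stayed below the control of its own embryo. The median member stood at 8.14, 11.0, 7.34, 8.48 and 12.3 CPM in control and at 4.97, 5.84, 4.45 and 5.40 CPM with doxorubicin. Het and KO 3, the controls with high interferon genes, were the highest of the 5, with 201 and 213 members above the WT control, against 58 in KO 1 and 150 in KO 2. The part of these states in the levels was not tested.

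**Figure D2:**
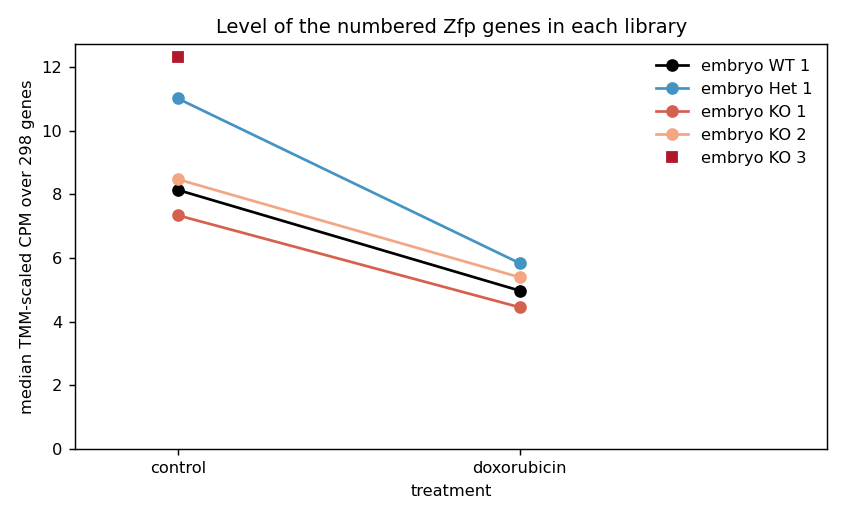
Median TMM-scaled CPM over the 298 numbered Zfp genes (y axis) in control and doxorubicin libraries (x axis); each colour is an embryo, lines join its libraries, and the square is KO embryo 3, which has a control library only. The 4 doxorubicin medians, between 4.45 and 5.84, lie below the 5 control medians, between 7.34 and 12.3. On library totals, which are not plotted, the Het doxorubicin median of 7.74 CPM lies above the WT, KO 1 and KO 2 control medians of 6.78, 6.03 and 6.99 CPM.

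The deepest decreases brought several members close to no reads. Of the 10 largest, Zfp583, Zfp763, Zfp810, Zfp286, Zfp799 and Zfp109 met the limit of 1 CPM through their control libraries alone, so that some difference was fixed by the choice of members. The values that follow are TMM-scaled CPM in the order WT, Het, KO 1, KO 2 and KO 3 for control and WT, Het, KO 1 and KO 2 for doxorubicin, and statistics are log2 fold change ± SE with the adjusted p of edgeR's quasi-likelihood test. Zfp583, a gene with 12 fingers on chr7:6315660-6331285, stood at 2.64, 4.96, 2.62, 3.14 and 5.16 CPM in control and 0.0497, 0.194, 0.0556 and 0.0459 CPM with doxorubicin (-5.43 ± 0.47, adjusted p = 4.36e-05). Its doxorubicin libraries held 7 counts in all, of which 4 fell in Het and 1 in each of the others, against 396 in the controls, a ratio of 43.8 with an exact 95% interval of 21.04 to 109.6 that covers counting error only. Zfp763, a KRAB member on chr17:33016863-33033402, went from 4.08, 5.74, 3.90, 4.44 and 6.91 CPM to 0.0995, 0.291, 0.167 and 0.184 CPM (-4.75 ± 0.37, adjusted p = 2.88e-05), on 531 and 15 summed counts. Both groups of libraries were far apart for both genes, which were chosen by their change. The fitted folds of such low genes depend on the prior count.

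Zfp60 had the smallest error among the 10 largest decreases. The gene, with 19 fingers on chr7:27731389-27753702, was measured at 16, 17.7, 15.8, 19.5 and 20.5 CPM in control and 1.39, 1.79, 1.78 and 1.93 CPM with doxorubicin (-3.36 ± 0.20, adjusted p = 9.42e-06). The KRAB members Zfp90 and Zfp810 had unequal spread among their controls. Zfp90 stood at 11.8, 14, 10.4, 12.5 and 16.1 CPM in control and 0.796, 1.84, 0.890 and 0.964 CPM with doxorubicin (-3.60 ± 0.28, adjusted p = 2.70e-05), with little spread. Zfp810 stood at 6.08, 17.8, 4.31, 6.23 and 21.6 CPM in control and 0.746, 1.07, 0.445 and 1.10 CPM with doxorubicin (-3.67 ± 0.58, adjusted p = 8.63e-04), and its 2 highest controls were Het and KO 3. The same held for the X-linked Zfp182, with 4.43, 13.7, 3.60, 4.55 and 14.9 CPM in control and 0.895, 1.94, 0.668 and 0.689 CPM with doxorubicin (-3.05 ± 0.52, adjusted p = 0.00119). In both genes, which were chosen by their change, the lowest control still lay above the highest treated library. Zfp286 (-3.58 ± 0.35, adjusted p = 7.64e-05), Zfp799 (-3.56 ± 0.44, adjusted p = 2.31e-04), Zfp27 (-3.36 ± 0.41, adjusted p = 2.08e-04) and Zfp109 (-3.36 ± 0.51, adjusted p = 6.54e-04) complete the 10. For Zfp109 the doxorubicin libraries held between 2 and 21 counts, and the ratio of summed counts was 8.42 with an exact 95% interval of 5.95 to 12.3.

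Against the general direction, 19 members rose. Zfp711 and Zfp69 among them met the limit of 1 CPM through their doxorubicin libraries alone, so that some difference was fixed by the choice. Zfp711, an X-linked relative of Zfx that binds promoters in CpG islands, went from 0.349, 1.19, 0.411, 0.168 and 0.853 CPM in control to 15.5, 14, 11.2 and 14.3 CPM with doxorubicin (4.56 ± 0.45, adjusted p = 7.81e-05). Zfp296, known from pluripotent cells, stood at 1.05, 1.97, 1.39, 1.29 and 3.32 CPM in control and 24, 22.5, 29.3 and 27.2 CPM with doxorubicin (3.89 ± 0.33, adjusted p = 4.16e-05), and 12.9% of its exonic bases are shared with Gemin7. The KRAB gene Zfp707 was at 6.38, 7.87, 4.52, 5.56 and 7.85 CPM in control and 44, 84.4, 41.8 and 58.4 CPM with doxorubicin (3.08 ± 0.22, adjusted p = 1.79e-05). For all 3, which were chosen by their change, the lowest treated library was above the highest control. In Zfp707 the Het library was the highest with the drug, and in Zfp711 the Het library had the highest control value.

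Other increases came from genes with varied roles. Zfp423, a factor of preadipocyte commitment that is rich in fingers, was measured at 2.64, 3.85, 2.52, 3.31 and 1.84 CPM in control and 13.1, 16, 13.4 and 13.7 CPM with doxorubicin (2.30 ± 0.23, adjusted p = 7.56e-05). The KRAB-type genes Zfp791 (2.56 ± 0.33, adjusted p = 2.61e-04) and Zfp69 (2.54 ± 0.30, adjusted p = 1.89e-04), the latter known from a diabetes locus in obese mice, stood near 1 CPM in control, at 0.996, 0.737, 0.873, 0.842 and 1.08 CPM for Zfp69, and reached 4.92, 8.24, 4.17 and 4.82 CPM. Zfp185, whose product is a LIM domain protein of the actin cytoskeleton rather than a C2H2 factor, rose as well (2.25 ± 0.28, adjusted p = 2.58e-04). Zfp654 had the smallest SE of the group, at 18.2, 16.3, 16.3, 16.4 and 17.7 CPM in control and 59.7, 44.4, 48.6 and 62.3 CPM with doxorubicin (1.66 ± 0.14, adjusted p = 4.20e-05). Zfp821 (1.47 ± 0.20, adjusted p = 3.82e-04) and Zfp367 (1.46 ± 0.21, adjusted p = 5.01e-04) close the 10 largest increases, and the Het library was the lowest of the treated for Zfp367, at 30.5 CPM against 53.4 to 56.8 CPM in the others.

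**Figure D3:**
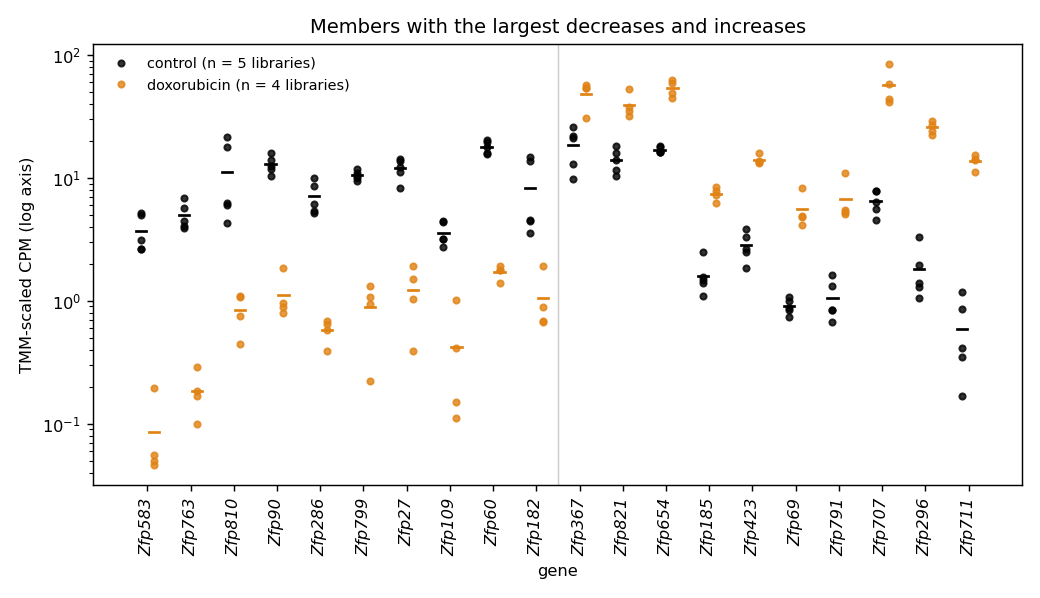
TMM-scaled CPM (y axis, log scale) of the 10 members with the largest decreases and the 10 with the largest increases (x axis) in 5 control (black) and 4 doxorubicin (orange) libraries; points are libraries and bars are means. The treated and control points do not overlap for any of the genes plotted.

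By protein class, the decreases were spread over both main groups. Of the 111 members with a KRAB box 64 were lower and 4 higher (Zfp707, Zfp791, Zfp747 and Zfp251), with a median of -1.36. Of the 178 C2H2 members without a KRAB match 79 were lower and 13 higher, with a median of -0.92. Among the 7 without either pattern none was lower, 5 were not called and 2 (Zfp185 and Zfp365) were higher. The class without a match also holds known KRAB genes that the pattern missed, Zfp60 and Zfp583 among them. With the wider KRAB pattern, which takes in both, 89 of 159 members were lower, with a median of -1.35, and of the 137 others 54 were, with a median of -0.70. The difference between these classes was not tested.

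By number of fingers, 15 of 43 members with 0 to 4 fingers were lower and 6 higher. Of the 84 with 5 to 9 fingers 36 were lower and 8 higher, of the 107 with 10 to 14 fingers 60 and 3, and of the 62 with 15 or more 32 and 2. Across the 289 members with a finger, Spearman's rho between finger number and log2 fold change was -0.24. Across 647 tested genes of any name with such fingers it was -0.35, and genes are not independent replicates. The rho with gene span was -0.03 and with exonic length -0.04 over 298 members, against -0.13 and -0.20 over 15883 genes. With the GC share of the coding sequence it was 0.27 in the members and 0.28 over 14955 genes. These are descriptions over points that share the same libraries, and the members had a lower median GC share (48.6%) than all genes (53.5%).

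The mean level that chose the members includes both treatments. Of the 298 members 29 met 1 CPM through their control mean alone and 2 through their doxorubicin mean alone, and such genes had to differ between the treatments. Of the 267 with at least 1 CPM in both treatments 123 were lower and 17 higher, with a median of -0.98. Of the 15 numbered Zfp genes below the limit that could be tested 2 were lower and 3 higher. On a scale per length, the mean control CPM per kb of exon was 30.4 for Zfp207, 19.2 for Zfp146, 19.1 for Zfp106, 18.2 for Zfp703 and 17.9 for Zfp706, against a median of 2.18 over the members.

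Upstream sequences give a further view of the members. RefSeq promoters of 300 bases on GRCm38.p6 were matched for 246 members, with a median of 16 CG dinucleotides against 7 over 27025 promoters. Those 27025 were not limited to genes with a mean of 1 CPM, as the members were. The part of that limit in these differences and those that follow was not tested. On either strand, the word GGGCGG was present in 47.2% of the members' promoters and 35.9% of all, CCAAT in 45.9% and 37.9%, AAGATGG in 10.6% and 6.48%, GCATGCG in 6.91% and 3.64%, and TATAAA in 6.10% and 14.2%. The 120 bases before the start site are shown for Zfp763 and Zfp799, which fell and lie in the same gene cluster, and for Zfp296 and Zfp69, which rose, with these words in capitals.
Zfp763 (chr17:33033382-33033501, minus strand): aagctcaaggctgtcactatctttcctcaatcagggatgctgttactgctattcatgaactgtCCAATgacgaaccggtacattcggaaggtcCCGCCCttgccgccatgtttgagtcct
Zfp799 (chr17:32830262-32830381, minus strand): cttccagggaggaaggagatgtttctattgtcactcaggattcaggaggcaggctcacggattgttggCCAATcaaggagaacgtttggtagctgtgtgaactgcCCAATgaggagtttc
Zfp296 (chr7:19577167-19577286, plus strand): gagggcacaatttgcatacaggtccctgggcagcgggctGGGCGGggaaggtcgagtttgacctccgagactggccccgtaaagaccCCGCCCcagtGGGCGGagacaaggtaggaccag
Zfp69 (chr4:120951702-120951821, minus strand): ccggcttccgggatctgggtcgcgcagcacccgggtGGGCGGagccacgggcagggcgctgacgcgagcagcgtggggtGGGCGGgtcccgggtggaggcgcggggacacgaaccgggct
The stretches of Zfp763 and Zfp799 hold CCAAT, and those of Zfp296, Zfp69 and Zfp763 hold GGGCGG or its complement. Among the other largest changes the words stood in genes of both directions. The rising Zfp821 and Zfp367 hold CCAAT as well as GGGCGG, the rising Zfp423 and the falling Zfp810 hold GGGCGG, and none of the words is in the stretch of the falling Zfp583, Zfp27, Zfp109 and Zfp60 or the rising Zfp791 and Zfp185. A match is a description of letters, and binding was not measured.

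The members lay on 20 chromosomes, with 78 on chromosome 7, 36 on chromosome 17 and 25 on chromosome 13. On chromosome 7, 46 were lower and 2 higher, on chromosome 17 18 and 0, on chromosome 13 7 and 2, and on chromosome 9 13 of 17 and 0. The share lower was 59.0% on chromosome 7, 28.0% on chromosome 13 and 76.5% on chromosome 9, against 48.0% of all members. On chromosome 17, with 18 of 36, it was near that of all members. Differences between chromosomes were not tested. Members with under 250000 bases between neighbours formed 12 clusters of at least 5, with 109 genes in all. Of these 60 were lower and 2 higher, with a median of -1.26, and of the 189 outside 83 were lower and 17 higher, with a median of -0.95.

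Counts varied between the clusters, which were not tested against each other. In the cluster at chr7:29768552-30169750, 14 of 15 members were lower and the median was -1.72. Its genes included Zfp260 at 61.3, 72.4, 48.3, 58.4 and 90.4 CPM in control and 9.5, 9.16, 7.90 and 13.4 CPM with doxorubicin (-2.72 ± 0.25, adjusted p = 6.18e-05), Zfp146 at 65.8, 56.7, 61.2, 69.1 and 60.5 CPM in control and 14.5, 13.2, 12 and 16.1 CPM with doxorubicin (-2.16 ± 0.15, adjusted p = 1.68e-05) and Zfp84 (-1.24 ± 0.16, adjusted p = 3.26e-04). The single member not called was Zfp30 (-0.68 ± 0.25, adjusted p = 0.0480). In the cluster at chr17:32765496-33631779, 10 of 11 were lower, with a median of -2.32. Alongside Zfp763 and Zfp799 it held Zfp414 at 13.8, 12, 12.1, 15.7 and 15.7 CPM in control and 3.73, 2.96, 3.78 and 3.49 CPM with doxorubicin (-1.97 ± 0.19, adjusted p = 6.94e-05) and Zfp952 (-2.19 ± 0.25, adjusted p = 1.68e-04), and the member not called was Zfp811. Its other members ran from -0.82 for Zfp871 to -2.45 for Zfp472.

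Others were mixed. In the cluster at chr6:47819266-48086593, 2 of 8 members were lower and 1 higher, with Zfp212 at -1.76 (adjusted p = 2.28e-04) and Zfp398 at 0.85 (adjusted p = 0.00743). In the cluster at chr7:127233061-127885996, 2 of 10 were lower and 1 higher, with Zfp768 at -1.61 (adjusted p = 2.72e-04) and Zfp747 at 0.78 (adjusted p = 0.00743). In the largest, at chr13:67038596-67827002, 6 of 16 were lower and 0 higher, and 14 had an estimate below 0. Its median was -1.30, and Zfp429, Zfp456 and Zfp85 there have proteins at least 90% identical to another gene's, so their counts are uncertain. The genes of this paragraph and the one before it, other than those chosen by the naming rule, were picked with their values in view.

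**Figure D4:**
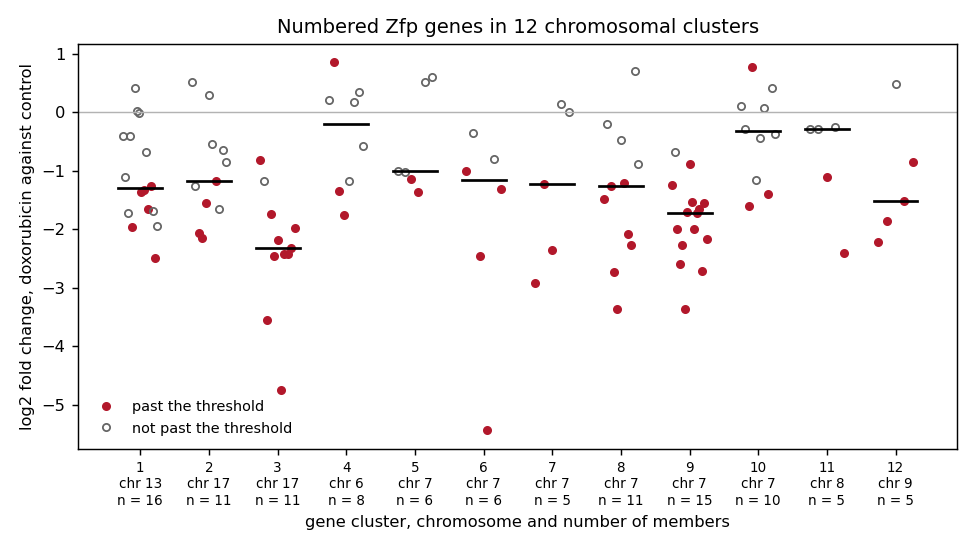
Log2 fold change between doxorubicin and control (y axis) of the members of 12 chromosomal clusters (x axis, with chromosome and number of members); filled points passed the threshold, open points did not, and bars are medians. Clusters 3 and 9 have medians of -2.32 and -1.72, while clusters 4 and 10 have points on both sides of 0.

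Among members with a known role, the list for imprinting and retroelement silencing had 3 of 6 lower and none higher. Over all members 48.0% were lower and 6.38% higher, so the share lower in this list was near that of the members as a whole. Zfp445, which with Zfp57 keeps imprints in the early embryo, was at 63.8, 123, 56.2, 64.2 and 120.2 CPM in control and 16.8, 25.2, 15.2 and 17.8 CPM with doxorubicin (-2.20 ± 0.25, adjusted p = 1.53e-04). Zfp568, a repressor of a placental Igf2 transcript, was at 52.5, 41.3, 48.6, 51.8 and 44.4 CPM in control and 13.9, 18.6, 17.1 and 16.3 CPM with doxorubicin (-1.53 ± 0.16, adjusted p = 9.84e-05). Zfp445 was highest in the Het and KO 3 controls and Zfp568 lowest there, yet neither overlapped between treatments. Zfp809, which silences murine leukemia virus sequences, fell by 1.20 on the log2 scale (SE 0.28, adjusted p = 0.00594), a call that 9 of 16 alternative settings lost. Zfp57 was at 24.8, 75.3, 21.5, 27.1 and 90.8 CPM in control and 12.8, 48, 9.07 and 12 CPM with doxorubicin (-1.51 ± 0.50, adjusted p = 0.0288), with Het and KO 3 far above the others, and it passed with the embryo as a block (adjusted p = 2.67e-04). Zfp708 (-1.10 ± 0.44, adjusted p = 0.0596) and Zfp932 (-1.06 ± 0.58, adjusted p = 0.156), which act on endogenous retroviruses, did not pass, and the counts of Zfp932 are uncertain because its protein is 92.6% identical to that of Gm15446.

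Of 11 promoter and enhancer factors 5 were lower and none higher. The share of 45.5% lower is near the 48.0% of all members. Zfp462, a large chromatin-associated protein, stood at 87.3, 45, 66.8, 72.9 and 54.3 CPM in control and 15.6, 14.1, 13 and 12.2 CPM with doxorubicin (-2.23 ± 0.18, adjusted p = 3.67e-05). Zfp644, a partner of the G9a methyltransferase, Zfp148, a binder of GC-rich promoters, Zfp91 and Zfp687 fell with log2 fold changes of -1.32, -1.28, -1.11 and -1.02. Zfp143, which sits at promoters and chromatin loops, was at 19.8, 14.3, 17.4, 18 and 13.9 CPM in control and 14.8, 12.9, 12.9 and 14.4 CPM with doxorubicin (-0.28 ± 0.16, adjusted p = 0.175), and Zfp281, Zfp217, Zfp451 and Zfp410 lay between -0.34 and 0.20 without passing. Zfp219, which lies on chromosome 14 as Sall2 does, was higher with the drug in each of 4 embryos (0.64 ± 0.26, adjusted p = 0.0637) and passed with the embryo as a block (adjusted p = 6.77e-04).

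The list for the DNA damage response and telomeres had 3 of 5 lower and 1 higher, against 48.0% and 6.38% of all members. The difference, which rests on 5 genes, was not tested. Zfp827, which brings the NuRD complex to telomeres, was at 42.2, 36.4, 34.2, 41.4 and 35.1 CPM in control and 8.76, 9.5, 7.12 and 9.05 CPM with doxorubicin (-2.15 ± 0.16, adjusted p = 2.42e-05). Zfp420, known as a binding partner of p53, fell (-2.27 ± 0.40, adjusted p = 0.00143), as did Zfp830 (-0.91 ± 0.17, adjusted p = 0.00202), a call that 6 of 16 alternative settings lost. Zfp365, which guards fragile sites and telomeres, rose from 36.9, 49.4, 28.8, 37.8 and 46.6 CPM to 72.7, 70.8, 78 and 93.7 CPM (0.99 ± 0.19, adjusted p = 0.00209), and its call was lost in 6 of 16 settings. Zfp668 was at 16.5, 10.4, 14, 15.9 and 11.1 CPM in control and 19.1, 17.1, 17.1 and 18.4 CPM with doxorubicin (0.42 ± 0.17, adjusted p = 0.0700), and each treated value lay above each control value.

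Of the RNA, ribosome and spindle list 2 of 9 were lower and 2 higher, or 22.2% each, near the 18.7% and 21.9% over all genes tested. Zfp207, which loads Bub3 on kinetochores and has the highest level per length, was at 187, 205, 199, 188 and 233 CPM in control and 78.8, 73.1, 94.8 and 83.1 CPM with doxorubicin (-1.29 ± 0.15, adjusted p = 1.64e-04). Zfp706, a small protein with a single finger, fell as well (-0.85 ± 0.12, adjusted p = 4.52e-04). Zfp346, a binder of double-stranded RNA, rose from 21.2, 32, 19.8, 24.1 and 31 CPM to 59.5, 55.6, 62.3 and 59.9 CPM (1.22 ± 0.18, adjusted p = 5.18e-04), and Zfp622, a factor of large ribosomal subunit maturation, rose (0.85 ± 0.21, adjusted p = 0.00722), a call lost in 7 of 16 settings. Zfp598, the ubiquitin ligase of collided ribosomes (0.07 ± 0.16, adjusted p = 0.725), and Zfp330 (0.02 ± 0.15, adjusted p = 0.901) had estimates near 0. Zfp106 (-0.51 ± 0.13, adjusted p = 0.0110, or 0.00104 with the embryo as a block), Zfp326 (-0.23 ± 0.12, adjusted p = 0.138) and Zfp593 (0.35 ± 0.21, adjusted p = 0.198) did not pass, and 77.9% of the exonic bases of Zfp593 overlap another gene.

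Of the 5 mesenchyme and adipose members Zfp423 rose, as described, and Zfp467, which favours adipocyte over osteoblast fate, fell (-1.47 ± 0.22, adjusted p = 6.08e-04). That is 1 of 5 in each direction, near the 18.7% lower and 21.9% higher over all genes tested. Zfp521, an antagonist of Zfp423 in preadipocytes, was at 31.5, 14.1, 29.8, 42.9 and 11.9 CPM in control and 17.5, 9.01, 14.2 and 14.9 CPM with doxorubicin (-0.86 ± 0.33, adjusted p = 0.0517), and passed with the embryo as a block (adjusted p = 7.16e-04). Het and KO 3, the controls with low fibroblast markers, had the lowest Zfp521 in control. Zfp503 (-0.52 ± 0.23, adjusted p = 0.0821, or 0.00397 with the embryo as a block) and Zfp703 (0.07 ± 0.22, adjusted p = 0.820), both of the NET family, did not pass, and their controls in Het and KO 3 were also the lowest. Among the most abundant members, Zfp740 (-0.62 ± 0.15, adjusted p = 0.00725) fell and Zfp664 (-0.08 ± 0.13, adjusted p = 0.613) did not pass, and the call of Zfp740 was lost in 8 of 16 settings.

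**Figure D5:**
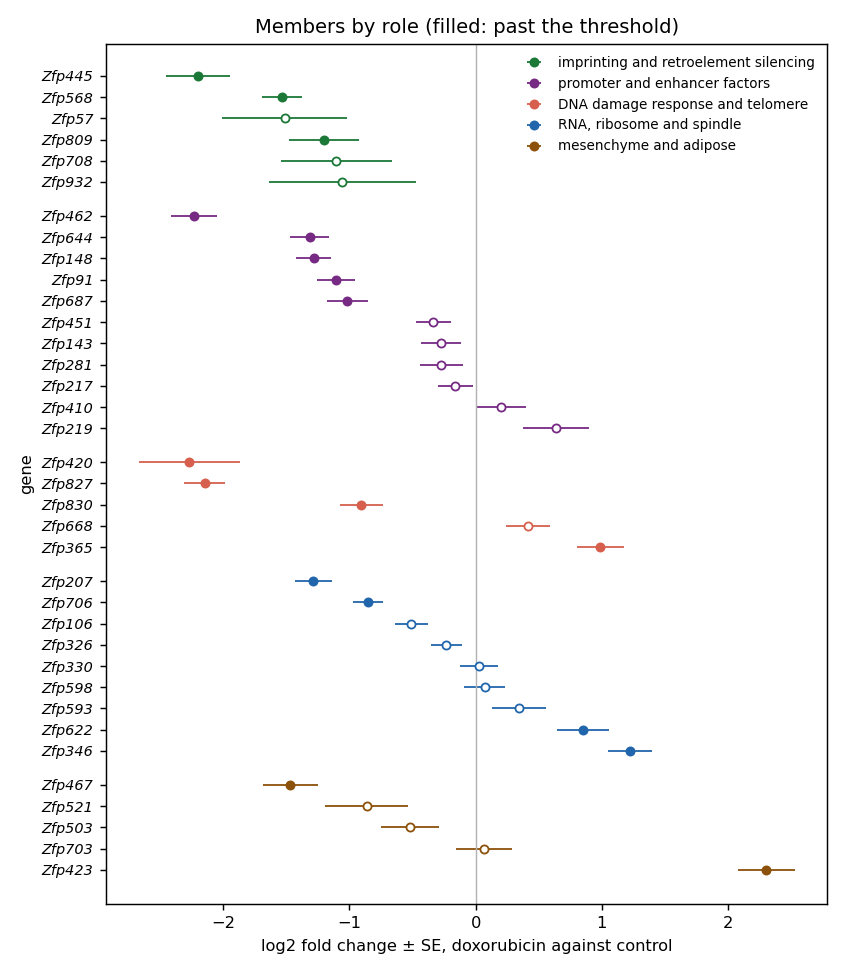
Log2 fold change ± SE between doxorubicin and control (x axis) for the members of 5 role lists (y axis, coloured by list); filled points passed the threshold and open points did not. Zfp445, Zfp462, Zfp420 and Zfp827 lie below -2, and Zfp423 at 2.30 is the highest.

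A list of KRAB co-repressor genes and other chromatin genes, none of them members, moved mostly the same way, with 9 of 17 lower and 1 higher and a median of -0.89. That is 52.9% lower and 5.88% higher, against 22.0% and 19.6% of all genes at a mean of 1 CPM or more. Trim28, the KRAB co-repressor, was at 407, 207, 387, 407 and 215 CPM in control and 169, 90.7, 222 and 168 CPM with doxorubicin (-0.99 ± 0.24, adjusted p = 0.00735), and Setdb1 at 50.2, 55.2, 48.5, 52.3 and 56.1 CPM in control and 28.6, 26.8, 28 and 27.4 CPM with doxorubicin (-0.92 ± 0.13, adjusted p = 3.81e-04). The HP1 genes Cbx5 (-1.82 ± 0.27, adjusted p = 6.06e-04), Cbx3 (-1.58 ± 0.30, adjusted p = 0.00195) and Cbx1 (-0.67 ± 0.17, adjusted p = 0.00911) and the maintenance methyltransferase Dnmt1 (-1.97 ± 0.38, adjusted p = 0.00226) were lower. So were Atf7ip (-1.68 ± 0.19, adjusted p = 1.44e-04), Trim24 (-1.07 ± 0.15, adjusted p = 3.92e-04) and Trim33 (-1.46 ± 0.17, adjusted p = 1.89e-04). With the embryo as a block Chd4 (adjusted p = 0.00147), Hdac2 (adjusted p = 6.07e-04) and Uhrf1 (adjusted p = 3.06e-04) passed as lower too. Ezh2 of the Polycomb complex was the gene that was higher (1.16 ± 0.18, adjusted p = 6.89e-04). Trim28, Cbx5 and Dnmt1 were at a lower level in the Het and KO 3 controls than in the other 3.

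Related zinc finger families were measured under the same mean of 1 CPM. Of 18 Zscan and Zkscan genes, whose SCAN domain lets them pair, 10 were lower and 2 higher, with a median of -1.24. Of 35 Zbtb genes, with a BTB domain, 10 were lower and 9 higher (median -0.42), and of 15 Klf genes 3 and 4 (median 0.03). Among all genes tested at that mean, 22.0% were lower and 19.6% higher, with a median of -0.11. The differences between families were not tested.

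The genotype comparison gave no call. No member differed between KO and WT over both treatments in edgeR's quasi-likelihood test, where 0.0% of 16656 genes were called, none had an unadjusted p under 0.05, and DESeq2 called 0 members. The smallest p was that of Zfp709, at 0.0918 (log2 fold change 0.73 ± 0.38, adjusted p = 1.00). The median log2 fold change over members was 0.09. For the interaction of genotype and treatment 0.0% of all genes and 0 members were called, with 0 members under an unadjusted p of 0.05 and 0 members called by DESeq2; with the embryo as a block 0 members were called and 6 lay under 0.05. WT had 1 embryo with 1 library per treatment, and the fit without the block took libraries of an embryo as independent. Its p-values for KO against WT therefore do not measure the spread between embryos, and the precision of both comparisons was low. Embryos also differed in sex by their counts. The KO 1 and KO 3 controls had 3 and 31 Xist counts and 3806 and 6397 Y-linked counts, as in males. The WT, Het and KO 2 controls had 5913, 33029 and 5997 Xist counts and 1, 3 and 1 Y-linked counts, as in females. The part of sex in the genotype comparison was not tested.

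Zfp811 stood at 0.548, 6.60, 0.873, 0.786 and 5.12 CPM in control and 0.448, 2.91, 0.835 and 0.781 CPM with doxorubicin (-1.18 ± 0.62, adjusted p = 0.139), with KO 3 apart from KO 1 and KO 2. Zfp433 stood at 0.349, 2.13, 0.822, 0.674 and 2.69 CPM in control and 0.895, 1.16, 1.11 and 1.10 CPM with doxorubicin (-0.14 ± 0.54, adjusted p = 0.840). For Zfp811 the 3 libraries at 2.91 CPM or more are those with high interferon genes, and the part of that state was not tested. Of the 3 members on chromosome 14 (Zfp219, Zfp395 and Zfp503) none passed for genotype, and none for treatment in the fit without the block, and Zfp395 was at 13.2, 5.98, 12.6, 18 and 8.12 CPM in control and 14, 9.74, 16.1 and 15.2 CPM with doxorubicin (0.33 ± 0.25, adjusted p = 0.288).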

How the data were processed

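Total RNA of MEFs was sequenced as rRNA-depleted, mRNA-enriched libraries from a strand-marking kit. The authors pooled 4 FASTQ files per library, aligned reads to mm10 with HISAT2 (version 2.1.0 per the submitters' processing notes), sorted with Picard and obtained counts for the iGenomes gene models with HTSeq (union mode). The deposited values are whole-number counts, without normalization or filtering. The strand setting of HTSeq is not given in the sources used here, so genes that overlap others are uncertain, and union mode leaves out reads that fall on more than 1 gene.

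The 40 samples are 10 libraries of 4 lanes each. Libraries were grouped by their labels, and the identical pair was counted once, as KO embryo 2, whose control had 5997 Xist counts (31 in the KO 3 control) and the shared library 4163. The members, lists and tests were chosen with earlier results of these data known. Nothing says that embryos are unrelated, so p-values measure the spread between these libraries.

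The fit was made with edgeR 4.0.16 in R 4.3.3 (TMM, filterByExpr, glmQLFit and glmQLFTest, two-sided, FDR 0.01; 16656 genes) with genotype and treatment as terms over all 9 libraries. The SE was taken from the log2 fold change and F. Levels are TMM-scaled CPM, and embryo differences used a prior count of 2. At or under 3 counts in each library a gene was taken as at the floor, and intervals cover counting error only. The labels give libraries of an embryo the same number, and deviations correlated between treatments across 16656 genes (Pearson r 0.34 between KO embryos 1 and 2, 0.70 between Het and WT), so the pairing was tried as a replicate block. On data simulated for doxorubicin against control with 16656 genes, 79 of 100 genes changed 4-fold and 18 of 100 changed 2-fold were recovered, with 0 false calls. The simulated libraries were independent, without embryo pairing or interferon state, and no other genes were changed. In the real data 6760 genes were called, so these rates need not hold there.

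Alternatives were DESeq2 1.42.0, library totals or upper-quartile scaling, no low-count filter, an FDR of 0.001 or 0.05, RUVg with 1 factor, the embryo block, no genotype term, KO libraries only, a mean of 0.5 or 2 CPM, and each embryo left out. Leaving out Het and KO 3 together, the wider KRAB pattern and the separation of treatments on library totals were chosen after the data were seen. Gene models and coding sequences came from GENCODE on GRCm38, which matched 298 members, 2 of them through an older symbol, and proteins were compared with BLAST+ 2.17.0.

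Named are the 10 largest decreases and 10 largest increases among members past the threshold with the same sign in the 4 embryos, all members of the role lists, the 5 highest by mean CPM, the 3 on either side of 1 CPM, those on chromosome 14, Zfp811 and Zfp433 (which the study lists), the co-repressor list, Sall2 and p53 targets. Zfp960, named by the same rule, had a mean of 0.735 CPM and was no member. Mdm2 and Ccng1 had log2 fold changes of -0.25 and -0.19 without passing. Of the role lists, Zfp385a and Zfp469 were no members.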

Additional observations from a re-analysis of the deposited data

Results flagged for a closer look

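Among the 60 named members, 5 moved one way in the Het embryo and the other way in both KO embryos (log2, doxorubicin minus control), a difference that was not tested. Zfp433 was -0.84 in Het, against 0.37 and 0.60 in KO embryos 1 and 2. Zfp330 was -0.37 in Het, against 0.02 and 0.27. Zfp410 was -0.11 in Het, against 0.53 and 0.48. Zfp664 was 0.16 in Het, against -0.19 and -0.06, and Zfp703 was 0.20 in Het, against -0.13 and -0.20. Het was 1 embryo, with the high interferon genes described above.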

How the results depend on the processing

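The median log2 fold change of the members was below 0 and the members called lower outnumbered those called higher under each alternative. Leaving out 1 embryo at a time gave 74 to 177 members lower, 11 to 31 higher, 2916 to 9770 of all genes called (6760 in the fit reported) and a median of -1.15 to -0.96. Without Het and KO 3 together, 169 were lower and 36 higher, 10281 genes were called and the median was -0.92. At an FDR of 0.001 there were 85 lower, 12 higher and 3430 of all genes. With the KO libraries only there were 34 lower, 8 higher and 1911 of all genes, with fewer samples in the fit. The median was -0.93 with upper-quartile scaling, where the median over all genes was 0.21, and -1.27 with RUVg. Upper-quartile scaling gave 119 lower and 25 higher; without a filter the median over all genes was 0.23. With the embryo as a replicate block, 177 members were lower, 28 higher and 9486 of all genes called, with a median of -0.96; the block gave 0 members for the interaction. Beside the values above, DESeq2 (167 lower, 27 higher), library totals (103 and 14), the other filter, FDR and level settings and the model without genotype stayed within 1.5 times the reported counts. KO against WT and the interaction had 0 members called under each alternative that was run. Of 38 named members past the threshold, 22 lost it with the KO libraries only, 12 without KO embryo 2 and 7 without KO embryo 1, and none changed sign under these settings. The cause was not tested. Counts near the floor limit the folds of Zfp583, Zfp763 and Zfp109.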

Other observations

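Zfp784 and Zfp865 on chromosome 7 share exonic bases, 94.8% of those of Zfp784. Union mode leaves out reads that fall on more than 1 gene, and the strand setting is not given, so their counts are uncertain. Their fitted changes differed in sign: Zfp865 was lower with doxorubicin (log2 fold change -1.37, adjusted p = 0.000234, edgeR's quasi-likelihood test) and Zfp784 stood at 0.51 (adjusted p = 0.160). The pair was picked after its values were seen.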
